A study of Mus musculus with 24 samples.

Results

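The 10 genes described here encode subunits of the NuRD complex and were taken by name from a list: Chd4, Mbd3, Mta1, Mta2, Mta3, Hdac1, Hdac2, Gatad2a, Gatad2b and Rbbp4. All 10 were found among the 55413 genes of GENCODE vM21, of which 21938 are protein-coding. Open chromatin was mapped by ATAC-seq (a transposase cuts and tags accessible DNA) in E14 mouse embryonic stem cells whose CTCF carries an auxin-inducible degron (AID), so that the auxin IAA leads to its degradation. Every one of the 24 libraries, controls included, comes from cells with this degron. The libraries form 12 groups of 2. The line named as the overexpression control was sampled untreated or after IAA for 12 h. A line with extra wild-type CTCF and a line with extra mutated CTCF were sampled after IAA for 12 h only. These 8 libraries are called the CTCF lines. The mutation is not given in the labels. In the Chd4 set and in the Chd8 set, cells without IAA carried the control hairpin shluci, shRNA1 or shRNA2. In the serum set, CTCF-AID cells were sampled untreated or after IAA for 12 h, and their labels name serum although the growth protocol attached to them describes serum-free medium. Nothing in the labels says that the 2 libraries of a group came from separate cultures or clones, so the spread between them may be technical. Peak lists do not measure RNA or protein, so the knockdown of Chd4 could not be checked.

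NuRD joins 2 activities that are found apart in most chromatin complexes, the ATP-driven movement of nucleosomes and the removal of acetyl groups from histones. CHD4 is the remodelling ATPase, and GATAD2A and GATAD2B tie it to the deacetylase module, in which MTA proteins form a scaffold for HDAC1 or HDAC2 and for the histone chaperone RBBP4. MBD3 bridges the modules. In embryonic stem cells NuRD is known for restraining the expression of pluripotency genes and for being needed when cells leave self-renewal.

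The Chd4 promoter is shown first because its gene is the target of the hairpins, and the Mbd3 promoter because its peak ranked much lower in the libraries with Chd4 hairpins. The Hdac2 promoter is shown because a peak was called within 1 kb of a start of the gene in all 24 libraries. Each is the 250 bases before a RefSeq start (GRCm38.p6), in the direction of transcription. Capitals mark a GC box (GGGCGG, either strand) or a CCAAT box (AGCCAAT, either strand), and the motifs searched do not overlap here.
Chd4 promoter, chr6:125095731-125095980, plus strand: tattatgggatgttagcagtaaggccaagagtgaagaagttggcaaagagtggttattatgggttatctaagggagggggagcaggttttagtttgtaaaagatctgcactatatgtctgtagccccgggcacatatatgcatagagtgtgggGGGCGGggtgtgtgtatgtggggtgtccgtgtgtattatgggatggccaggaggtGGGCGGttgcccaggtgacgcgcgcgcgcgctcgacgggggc
Mbd3 promoter, chr10:80399532-80399781, minus strand: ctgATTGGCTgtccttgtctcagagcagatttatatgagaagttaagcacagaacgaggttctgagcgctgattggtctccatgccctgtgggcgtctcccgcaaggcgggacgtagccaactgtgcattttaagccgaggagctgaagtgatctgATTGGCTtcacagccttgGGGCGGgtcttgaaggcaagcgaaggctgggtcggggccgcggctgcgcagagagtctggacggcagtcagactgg
Hdac2 promoter, chr10:36974294-36974543, plus strand: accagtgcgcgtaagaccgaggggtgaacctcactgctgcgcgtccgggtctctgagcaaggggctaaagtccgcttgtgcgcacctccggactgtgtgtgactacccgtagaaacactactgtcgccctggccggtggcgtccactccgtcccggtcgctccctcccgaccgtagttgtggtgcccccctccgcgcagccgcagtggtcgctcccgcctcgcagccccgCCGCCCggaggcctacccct
The next sequences are the 121 bases around the summits of 3 sites lost with both Chd4 hairpins, those with the highest mean percentile over the libraries that called them, on the plus strand of GRCm38 and with the same capitals. The first 2 lie at gene starts and the third lies 6220 bp before the start of Mta3.
Gatad2a start site, chr8:69996409-69996529: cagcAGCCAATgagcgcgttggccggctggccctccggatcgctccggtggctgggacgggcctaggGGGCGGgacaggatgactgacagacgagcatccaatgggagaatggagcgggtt
Gatad2b start site, chr3:90293027-90293147: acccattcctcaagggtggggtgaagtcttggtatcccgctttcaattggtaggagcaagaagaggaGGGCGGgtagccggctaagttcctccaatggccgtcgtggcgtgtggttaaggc
Mta3 upstream site, chr17:83699883-83700003: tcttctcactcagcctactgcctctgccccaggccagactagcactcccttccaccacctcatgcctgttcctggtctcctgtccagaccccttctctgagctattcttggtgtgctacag
The last pair are sites in introns of Gatad2a and Mta3 with the 14-bp CTCF consensus, shown because each was lost with IAA in one medium. Capitals mark the match, which has 0 mismatches in Gatad2a and 1 in Mta3, on the plus strand in Gatad2a and on the minus strand in Mta3.
Gatad2a intron site, match at chr8:69919141-69919154: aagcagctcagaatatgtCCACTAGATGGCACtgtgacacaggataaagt
Mta3 intron site, match at chr17:83733003-83733016: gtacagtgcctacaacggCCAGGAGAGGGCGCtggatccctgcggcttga

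Of the 10 genes, 8 had promoters in the RefSeq table, with 11 promoters in all. Every one of the 11 held at least 1 GC box in the 250 bases before the start, a motif held by 32.7% of the 32851 promoters of the table. The CCAAT box, held by 7.25% of all promoters, was found at Mbd3 (2 matches) and at one of the starts of Gatad2a (1 match). The ETS letters CCGGAAG, held by 6.91% of all promoters, were found at Mta2 (2 matches) and at another start of Gatad2a (1 match). The cyclic AMP response element (TGACGTCA) was in 0 of the 11 windows and in 1.55% of all promoters. Each motif was searched on both strands. The upstream sequence held 54% G and C with 12 CpG at the first start of Chd4 and 80.8% with 39 CpG at Mta1, against medians of 52.4% and 6 CpG over the table. These are matches of letters only.

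Peaks per deposited list numbered 120137 to 155087 (CTCF lines), 80619 to 141742 (Chd4 set), 135410 to 166697 (Chd8 set) and 59786 to 82502 (serum set). Median peak lengths were 283 to 456 bp, 80 to 135 bp, 75 to 138 bp and 371 to 417 bp in the same order. Read depth is unknown from the lists, and each list was therefore cut to the shortest list of its set by the authors' −log10 p, with comparisons made within a set. Promoters of protein-coding genes were called at rates of 69.0% to 70.4% (CTCF lines), 61.1% to 65.97% (Chd8 set), 64.8% to 65.8% (serum set) and 40.1% to 54.9% (Chd4 set). Of 7 embryonic stem cell markers, 7 had a promoter peak in every library of the CTCF lines and of the serum set. Libraries of the Chd8 set had 6 or 7 of them and those of the Chd4 set 2 to 7. Promoters of other cell types' markers were called too (fibroblast 1 to 3 of 3, trophectoderm 1 to 3 of 3, primitive endoderm 2 to 3 of 3).

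A promoter peak is the best peak that lies within 1 kb of any annotated start of the gene. Its strength is given as a percentile, the rank of its −log10 p within the cut list, from 0 where no peak was called to 100 for the strongest. A value of 0 means below the limit of the list, not closed chromatin. Only 1 of the 10 genes, Hdac2, had a promoter peak in all 24 libraries, against 24.02% of protein-coding genes. Rbbp4 had one in 23, Mbd3, Gatad2a and Gatad2b in 22, Mta3 in 21, Mta2 in 20, Hdac1 in 18, Mta1 in 16 and Chd4 in 14. Every one of the 10 was called in all 8 libraries of the CTCF lines, and most missing calls were in the Chd4 set.

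**Figure D1:**
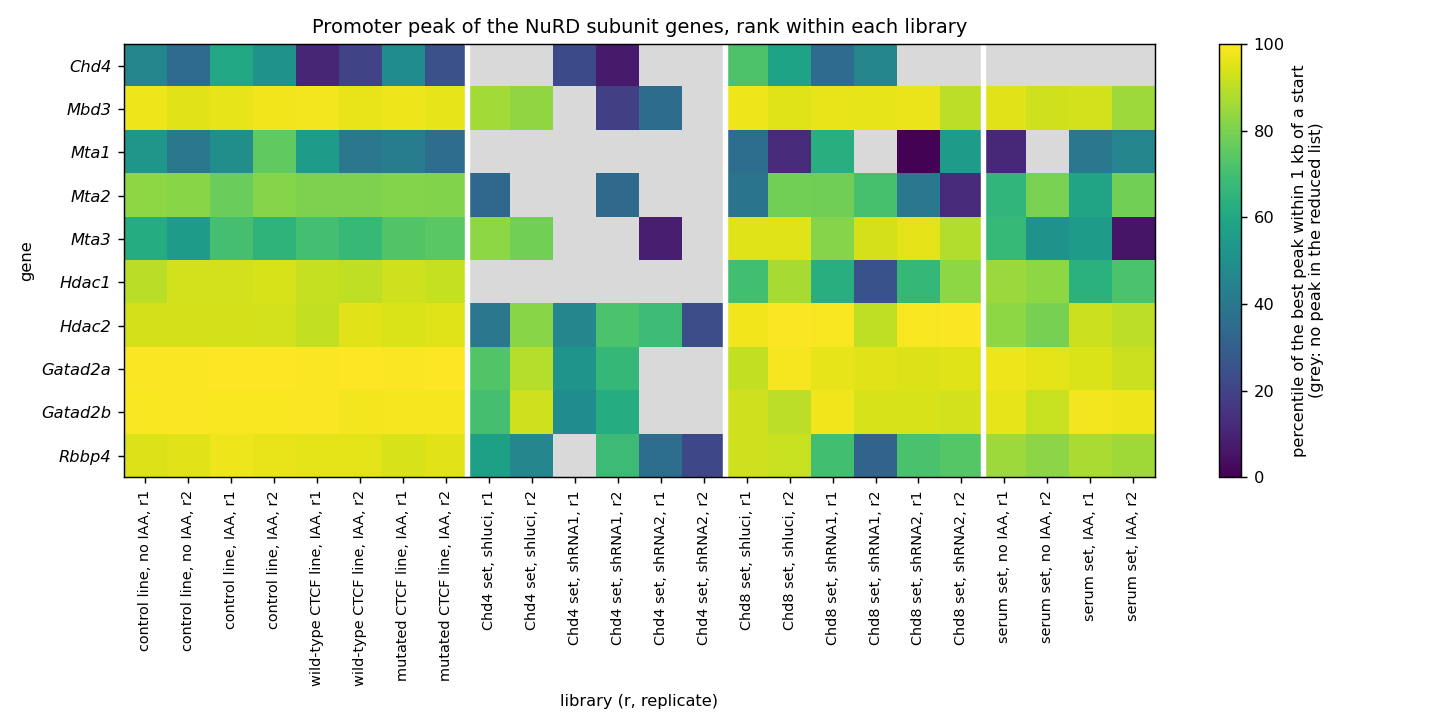
Percentile of the promoter peak of the 10 genes (rows) in the 24 libraries (columns), with white lines between the 4 sets and grey where no peak was called. Chd4 and Mta1 are the dim rows, with medians of 15.6 and 35.9, and the Chd4 set holds most of the grey cells.

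Over the 24 libraries, Gatad2a, Mbd3, Gatad2b and Hdac2 had the highest median percentiles, but the order differed between sets. With shluci of the Chd8 set, for example, Mta3 (95.05 and 94.96) was above the mean of Gatad2a (94.7), and Mta3 and Rbbp4 (mean 92.1) were above the mean of Gatad2b (91.3). Gatad2a had a median percentile of 95.7 over the 24 libraries, Mbd3 95.5, Gatad2b 95.1 and Hdac2 92.7. Rbbp4 followed at 85.4, Hdac1 at 77.3, Mta2 at 73.9 and Mta3 at 68.6. The order within these runs of close medians is not one the libraries separate, since the ranges of neighbours overlap. The peaks also differed in where they sat. The median distance from summit to start was 40.5 bp at Hdac2, 42 bp at Hdac1, 69.5 bp at Mta2 and 72 bp at Rbbp4, but 645 bp at Chd4 and 649 bp at Mta3.

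Chd4, the gene of the ATPase, had the lowest median percentile of the 10 over the 24 libraries (15.6). The order was not the same in every set: with shluci of the Chd8 set its mean of 65.0 was above those of Mta1 (23.97) and Mta2 (58.7). In the control line its percentile was 45.6 and 34.8 without IAA and 59.5 and 50.9 with IAA. It was 10.8 and 20.5 in the wild-type CTCF line and 48.8 and 24.9 in the mutated CTCF line. No peak was called within 1 kb of its starts in any of the 4 serum libraries, also in the lists at their deposited length. The sites nearest its starts are one 819 bp before the start, called in 11 libraries, one in the 5′ UTR at 94 bp from a start, called in 7, and one centred at 1016 bp in a coding exon, 154 bp from the start of the microRNA gene Mir7045, called in 10. The best peak was not at the same site in every library. At the site 819 bp before the start alone, the control line was at 45.6 and 19.3 without IAA and 59.5 and 47.0 with IAA, the wild-type line at 10.8 and 19.8 and the mutated line at 48.8 and 24.9, which overlaps the control line with IAA. Some sites further from the starts were called more often, though 1 of the 13 sites of the locus was called in no more than 2 libraries. A site 7352 bp upstream was called in 19 libraries, and a site 321 bp from the start of the downstream neighbour Nop2, whose product acts in ribosome assembly, was called in 20.

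**Figure D2:**
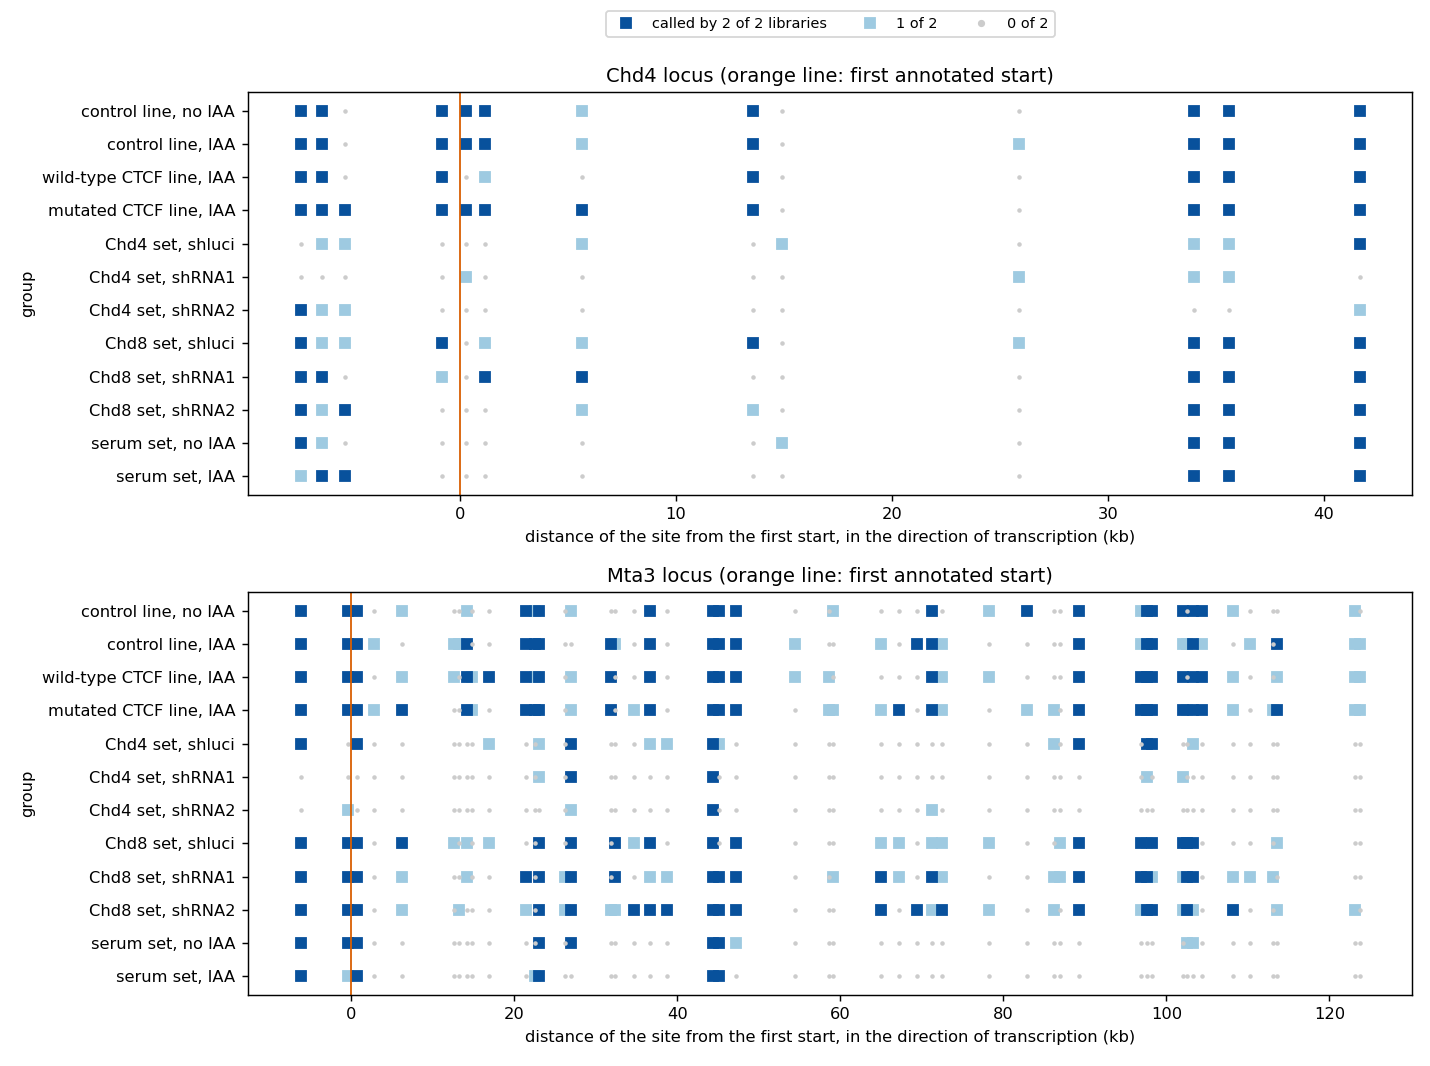
Sites at the Chd4 locus (top) and the Mta3 locus (bottom), by distance from the first start in kb (horizontal) and by group (vertical), with dark squares where both libraries of the group called the site, light squares where 1 did and grey dots where none did. At Chd4 the sites next to the start are missing in the serum set, and at Mta3 the site 6220 bp upstream is called in every group but the 2 with Chd4 hairpins.

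A site is a window of 501 bp around a peak summit that at least 2 libraries called. Within the gene bodies and 10 kb on either side, the 10 genes had 180 of the 233705 sites of the series. Mta3 had 49, Mta1 26, Gatad2a 25, Gatad2b 24, Chd4 13, Hdac1 11, Hdac2 and Rbbp4 9 each, Mbd3 8 and Mta2 6. Of the 180, 24 lay within 1 kb of a start of their own gene, 21 at the start of another gene and 135 in bodies and flanks. Called by all 24 libraries were 8 of the 180 (4.44%), against 3.72% of all sites. Of these 8, 4 belong to Mta1, 2 to Mta2 and 1 each to Mta3 and Gatad2a. None of them lies at a start of a NuRD gene, and 3 lie at starts of the neighbours Crip2 and Tut1.

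The Chd4 set asks what happens at these genes when the ATPase itself is targeted. With both hairpins, the promoter percentiles of Mbd3, Mta3, Gatad2a and Gatad2b were lower in all 4 hairpin libraries than in both shluci libraries. This is 4 of the 8 genes with a promoter peak in the set, against 21.4% of 14826 protein-coding genes measured in the same way. None of the 8 was higher without overlap, against 4.13%. The median difference was −35.7 percentile points over the 8 genes and −9.24 over all protein-coding genes. By call alone, both shluci libraries called 6 NuRD promoters, and 0 of them were lost in all 4 hairpin libraries (4.35% of all promoters so called). With shRNA1 1 of 6 was lost (Mta3, 9.54%) and with shRNA2 2 of 6 (Gatad2a and Gatad2b, 14.1%). Of 3 uncalled with shluci, 0 were gained with both hairpins (1.13%) and 1 with shRNA1 (Chd4, 3.68%). The lowest two-sided p that an exact permutation can give is 0.0667 for 2 libraries against 4 and 0.333 for 2 against 2, so no comparison in these sets can pass 0.05.

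Mbd3, whose product bridges the modules of the complex, had percentiles of 86.0 and 83.3 with shluci, 0 and 18.8 with shRNA1 and 35.4 and 0 with shRNA2. Both shluci libraries stand far above the 4 others, and 2 of those have no promoter peak. The mean difference was −71.1 ± 14.8 points (pooled SD, n = 2 and 4; two-sided exact permutation p = 0.0667). The call in shRNA2 replicate 1 came from peaks near another start, further inside the gene, while the site at 118 bp from the first start was called by neither shRNA2 library.

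Mta3 encodes one of the MTA scaffold proteins. Its percentiles were 83.0 and 78.9 with shluci, 0 and 0 with shRNA1 and 8.48 and 0 with shRNA2. The groups are wide apart, with a difference of −78.8 ± 3.94 points (pooled SD, n = 2 and 4; two-sided exact permutation p = 0.0667). The peak lies 668 bp into the gene, in an intron, so with starts taken within 500 bp the gene has no shluci peak and the difference is 2.12. Mta2, another scaffold gene, was at 33.2 and 0 with shluci, 0 and 34.5 with shRNA1 and 0 in both shRNA2 libraries, which overlap. Mta1 had no promoter peak in any of the 6 libraries.

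Gatad2a and Gatad2b encode the proteins that tie CHD4 to the rest of NuRD. Gatad2a was at 72.7 and 89.0 with shluci, 51.8 and 66.7 with shRNA1 and 0 in both shRNA2 libraries. Gatad2b was at 70.3 and 92.9 with shluci, 48.7 and 62.0 with shRNA1 and 0 in both shRNA2 libraries. In both genes all hairpin values are below both shluci values. The differences over both hairpins were −51.2 ± 30.7 and −53.9 ± 29.2 points (pooled SD, n = 2 and 4; two-sided exact permutation p = 0.133 for each). The shRNA1 values do not come from the sites nearest the first starts. For Gatad2a, the site at 85 bp from the first start was called in both shluci and in none of the 4 hairpin libraries, and the shRNA1 peak is at a site 21.8 kb inside the gene, 296 bp from another start. At that inner site shRNA1 was higher, with 51.8 and 66.7 against 3.73 and 21.8 with shluci and 0 in both shRNA2 libraries. For Gatad2b, the site at 91 bp from the first start was likewise called in both shluci and in none of the 4, and the shRNA1 peaks have their summits at 466 and 500 bp from a start. They overlap a neighbouring site centred at 707 bp, in a noncoding exon of the antisense gene 4930537H20Rik, which both shluci libraries called too.

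By promoter percentile, the deacetylase gene Hdac2 and the chaperone gene Rbbp4 gave smaller differences. Hdac2 was at 39.7 and 82.0 with shluci, 46.2 and 71.7 with shRNA1 and 68.4 and 24.1 with shRNA2, so that the shluci values span all but 1 of the others (−8.26 ± 24.3 points, pooled SD, n = 2 and 4; two-sided exact permutation p = 0.667). The 24.1 comes from a peak of 67 bp with its summit 596 bp from a start. Rbbp4 was at 57.0 and 46.5 with shluci, 0 and 68.5 with shRNA1 and 36.02 and 21.5 with shRNA2, which overlap (−20.2 ± 25.2 points, pooled SD). The value in shRNA1 and the lower one in shRNA2 come from a site toward Zbtb8os, a gene that starts 325 bp away. The site at 17 bp from the start of Rbbp4 was called in both shluci and in none of the 4 hairpin libraries. Hdac1 had no promoter peak in the 6 cut lists and one in 2 of the lists at deposited length.

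Chd4 itself had no promoter peak with shluci (0 and 0), so a loss could not be seen. It had a weak one in both shRNA1 libraries (22.5 and 7.14) and none in both shRNA2 libraries. The difference over both hairpins was 7.41 ± 9.20 points (pooled SD, n = 2 and 4; two-sided exact permutation p = 0.733). The deposited folds behind the shRNA1 calls, 4.71 and 4.18 over the local background, are the authors' values for peaks of 62 and 72 bp.

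**Figure D3:**
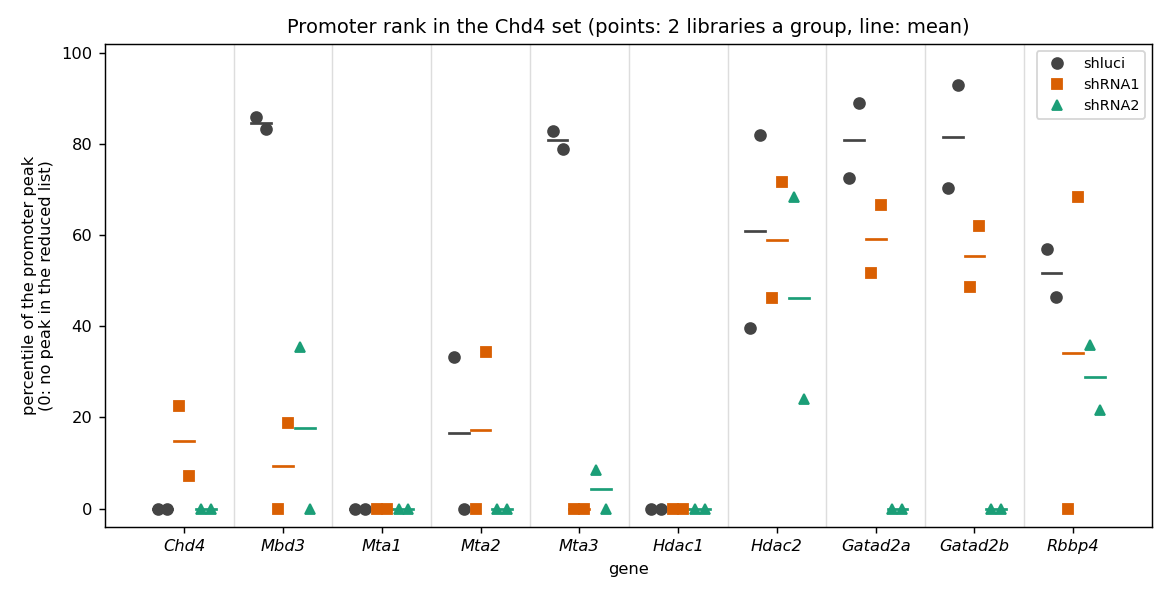
Percentile of the promoter peak (vertical, 0 where none was called) of the 10 genes in the 6 libraries of the Chd4 set, with 2 points and a line at their mean for each group. Both shluci points lie above all 4 hairpin points for Mbd3, Mta3, Gatad2a and Gatad2b, and the groups overlap for Mta2, Hdac2 and Rbbp4.

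The length of DNA within 1 kb of the starts that peaks covered gave a similar list. It was 671 bp with shluci and 38.5 bp with the hairpins for Gatad2a, 477 and 60.8 bp for Gatad2b, 314 and 72.5 bp for Mbd3, 310.5 and 101.5 bp for Rbbp4 and 159.5 and 17.5 bp for Mta3. In these 5 of 8 genes all hairpin libraries were below both shluci libraries (two-sided exact permutation p = 0.0667 for each, n = 2 and 4), against 36.2% of protein-coding genes. Hdac2, at 188 and 182.75 bp, did not separate. The lists of the hairpin libraries were also poorer in strong peaks, with 6930 to 8563 peaks at a −log10 q of at least 10 against 15501 and 16498 with shluci. Marker promoters differed as well. Of the 7 embryonic stem cell markers, Zfp42 (mean percentile 83.9 with shluci and 23.7 with the hairpins) and Dppa5a (94.2 and 6.90) were lower without overlap and the other 5 overlapped. The primitive endoderm marker Gata6 was lower without overlap (17.6 and 0), while Sox17 (26.6 and 57.9) and Pdgfra overlapped. The fibroblast marker Col1a2 was higher (28.3 and 90.2), while Col1a1 overlapped and Thy1 had no peak in the 6 cut lists. The trophectoderm markers Cdx2, Elf5 and Gata3 overlapped. Over protein-coding genes 21.4% were lower and 4.13% higher without overlap. The part of these differences in the values of the NuRD genes was not tested.

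Over all sites of the 10 genes, 39 were called by both shluci libraries of the Chd4 set and 9 of them by none of the 4 hairpin libraries (23.1%). Over all sites of the series the share lost in this way was 14.2%. Of the 106 sites called by neither shluci library, 0 were called by all 4 hairpin libraries, against 1.92% of all sites. At starts, 4 of 16 member sites were lost (9.47% of all start sites), and elsewhere 5 of 23 (16.3% of all other sites). Without shluci replicate 1, 23 of 61 sites were lost (37.7%, all sites 22.5%), and without shluci replicate 2, 17 of 52 (32.7%, all sites 22.6%). At a −log10 q of at least 10 the count was 3 of 6 (50%, all sites 45.2%) and with at least 50% of the window covered 6 of 10 (60%, all sites 54.1%), both close to the share of all sites.

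Mta3 had 4 of the 9 lost sites, of 7 that could be lost. They are the upstream site at chr17:83699693-83700193, with percentiles of 88.8 and 81.4 with shluci, the intron site at the start at chr17:83706609-83707109 (83.0 and 78.9), and intron sites at chr17:83795142-83795642 (9.40 and 7.60) and chr17:83804096-83804596 (62.7 and 21.7). A Mta3 site in an intron 44.3 kb from the start, in contrast, was called in all 24 libraries, with 67.6 and 86.9 in shluci and 64.1 to 95.03 in the hairpin libraries. Mta1 lost 2 of 12 sites, an intergenic one 2520 bp upstream at chr12:113095508-113096008 (31.6 and 28.3 with shluci) and an intron one at chr12:113132864-113133364 (39.1 and 27.8).

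The other 3 lost sites are starts. They are those of Gatad2a at chr8:69996219-69996719, Gatad2b at chr3:90292837-90293337 and Rbbp4 at chr4:129335103-129335603, the last in the 5′ UTR at 17 bp from the start. All 9 were called by all 8 libraries of the CTCF lines, as were 79.7% of the 6616 lost sites of the series. The CTCF consensus was in 0 of the 9, against 5.79% of all sites lost with both hairpins. Their median G and C content was 54.3% (46.9 to 69.7%), next to 54.2% (45.7 to 67.7%) for the 10 member sites called in all 6 libraries of the set. Over all sites of the series the medians were 49.7% for lost and 50.5% for kept sites. A difference in base composition was not tested.

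By hairpin, shRNA1 lost 10 of the 39 sites (24.1% of all sites) and shRNA2 16 (28.7% of all sites). Without shluci replicate 1 these were 27 of 61 (44.3%, all sites 34.2%) and 32 of 61 (52.5%, all sites 38%). Without shluci replicate 2 they were 20 of 52 (38.5%, all sites 34.4%) and 27 of 52 (51.9%, all sites 37.6%). With 1 shRNA1 library left out, shRNA1 lost 14 or 15 of 39 (35.9% and 38.5%, all sites 36.9% and 38.9%), below the share of all sites. With 1 shRNA2 library left out, shRNA2 lost 21 or 24 of 39 (53.8% and 61.5%, all sites 39.98% and 47.8%). In the full set of libraries both hairpins lost the 9 sites above. To these shRNA1 added a site in Nop2 while shRNA2 added 7, among them the Mbd3 start site and the Gatad2a site at the inner start. Gained were 1 site with shRNA1, at Mta1 (6% of all sites), and 2 with shRNA2, at Chd4 and Gatad2b (6.08%). The Chd4 one is the site 7352 bp upstream of the gene, absent with shluci and at 56.8 and 27.3 with shRNA2.

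**Figure D4:**
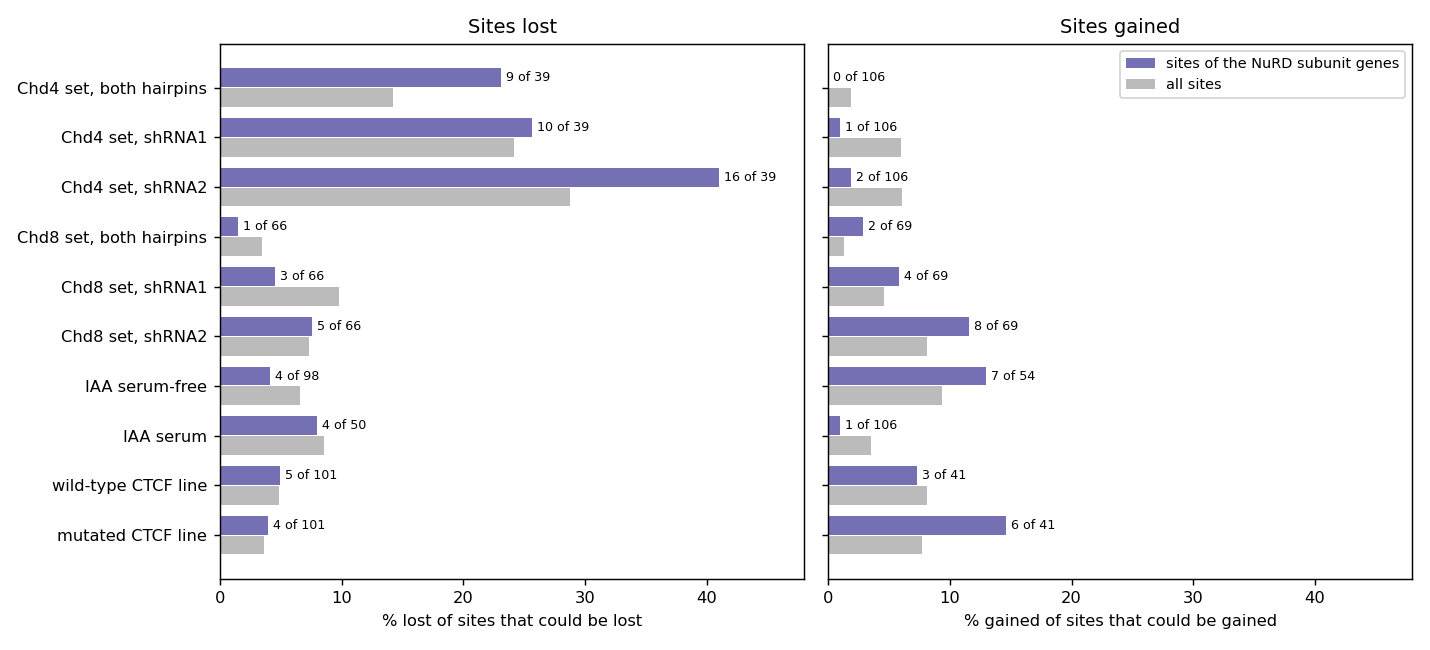
Share of sites lost (left) and gained (right) in each comparison (vertical), in % of the sites that could be lost or gained, for the sites of the 10 NuRD genes (purple, with counts) and for all sites (grey). For losses in the Chd4 set the member bars are longer than the grey ones with both hairpins (9 of 39) and with shRNA2 (16 of 39) and close to them with shRNA1 (10 of 39). For losses elsewhere they are close to the grey ones or shorter.

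The other genes of the pathway, 17 paralogs, partners and subunits of other deacetylase complexes, were measured in the same way. In the Chd4 set 13 of the 17 had a promoter peak. With both hairpins 4 of these 13 were lower without overlap, 0 higher and 9 overlapped, against 21.4% lower over protein-coding genes. Chd3, Chd5, Cdk2ap1 and Kdm1a had no promoter peak in the 6 libraries. Sall4, a pluripotency factor that binds NuRD, had a mean percentile of 83.7 with shluci and 0 with the hairpins, and Rcor1, the scaffold of the CoREST complex, 50.7 and 0. Pwwp2a, a reader of histone H2A.Z that binds part of NuRD, was at 97.8 and 17.5, and Mier1, a partner of HDAC1 and HDAC2, at 85.2 and 35.2. Sin3b, a scaffold of the SIN3 deacetylase complex, was at 89.8 and 90.7, which overlap between the groups.

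The Chd8 set asks the same of a related remodeller that is not part of NuRD. Most NuRD promoters overlapped between shluci and the hairpins, with 2 of 10 lower without overlap (6.17% of protein-coding genes) and 1 higher (3.99%). Chd4 was at 72.1 and 58.0 with shluci, 35.1 and 45.5 with shRNA1 and 0 in both shRNA2 libraries. These values come from different sites, the 72.1 from the one 819 bp before the start and the 58.0, 35.1 and 45.5 from the one centred at 1016 bp near the start of Mir7045. By site, the first was at 72.1 and 10.2 with shluci, 4.86 and 0 with shRNA1 and 0 in both shRNA2 libraries, and the second at 0 and 58.0, 35.1 and 45.5, and 0 and 0, which overlap. The shluci values of the promoter as a whole lie above the 4 others, with a difference of −44.9 ± 21.1 points (pooled SD, n = 2 and 4; two-sided exact permutation p = 0.133). The covered length at its starts was 160.5 bp with shluci and 39.5 bp with the hairpins, also without overlap (two-sided exact permutation p = 0.0667, n = 2 and 4), which held for 1.74% of protein-coding genes. The loss of both calls with shRNA2 was shared by 0.887% of promoters called with shluci. With starts taken within 500 bp the gene has no peak in the whole Chd8 set and the difference is 0, since the peaks of the Chd8 set lie further out.

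Rbbp4, the chaperone gene, was at 92.8 and 91.4 with shluci, 69.8 and 31.7 with shRNA1 and 71.3 and 73.7 with shRNA2 of the Chd8 set. All 4 hairpin libraries are lower, by 30.5 points on average (pooled SD 17.3, n = 2 and 4; two-sided exact permutation p = 0.133). The 92.8 comes from the site toward Zbtb8os. At the site at 17 bp from the start of Rbbp4 the values were 44.1 and 91.4 with shluci, 69.8 and 31.7 with shRNA1 and 71.3 and 73.7 with shRNA2, which overlap, and so did the covered length. Gatad2b was slightly higher in all 4, by 3.28 ± 2.08 points (pooled SD; two-sided exact permutation p = 0.2, n = 2 and 4). Mbd3 stayed between 89.9 and 97.6 in all 6 libraries and Hdac2 between 90.4 and 99.6. Mta3, Gatad2a and Gatad2b lay at 81.7 or more in each library.

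Of 66 sites called by both shluci libraries of the Chd8 set, 1 was lost with both hairpins (3.46% of all sites), in an intron of Crip2 within the flank of Mta1. Of 69 sites called by neither, 2 were gained (1.28%). One lies in an intron of Mta1 at chr12:113119486-113119986, with 73.1 and 62.8 in shRNA1 and 6.78 and 24.03 in shRNA2. It was called by no library of the CTCF lines or of the Chd4 set, and in serum by both libraries without IAA (57.4 and 54.5) and neither with IAA. The other gained site, in an intron of Mta3, was at 91.8 and 0.0849 in shRNA1 and 97.9 and 96.1 in shRNA2. The 3 high values are also those of the neighbouring Mta3 site that all 24 libraries called, 44.3 kb from the start, since 1 peak overlaps both windows. By hairpin, 3 sites were lost with shRNA1 (9.77%) and 5 with shRNA2 (7.35%), while 4 (4.55%) and 8 (8.1%) were gained. These counts rest on single libraries, and leaving out 1 library raised them along with the shares of all sites. Losses reached 13 of 66 with shRNA1 (19.7%, all sites 21.6%) and 12 of 96 with shRNA2 (12.5%, all sites 17.3%). Gains reached 14 of 69 with shRNA1 (20.3%, all sites 16.8%). With shRNA2 they reached 17 of 69 (24.6%, all sites 20.1%) and 17 of 99 (17.2%, all sites 15.3%).

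Peak calls with and without IAA were compared in both media as labelled, where 2 libraries stand against 2. The level of CTCF was not measured. In serum-free medium 1 of 10 NuRD promoters was lower without overlap (16.6% of protein-coding genes) and 4 were higher (24.7%). By covered length 3 were lower (Mta3, Hdac1 and Hdac2; 11.9%) and 1 higher (Gatad2b; 22.7%), so that Mta3 was higher by percentile and lower by covered length. Chd4 was higher by 15.0 ± 6.90 points (pooled SD, n = 2 and 2; two-sided exact permutation p = 0.333). Mta3 was at 61.9 and 55.1 without and 70.6 and 65.1 with IAA. Rbbp4 was higher by 2.00 points and Gatad2a by 0.227, while Mta2 was lower by 3.30.

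In serum 2 of 9 NuRD promoters were lower (18.5%) and 4 higher (16.9%), and by covered length 1 was lower (Hdac1; 6.68%) and 1 higher (Rbbp4; 34.7%). Mta1 was at 11.03 and 0 without IAA and 40.0 and 45.7 with IAA. Its peaks lie at the edge of the 1 kb window, with summits 1093 to 1161 bp from the start, and the 0 comes from that edge: at the site centred 1161 bp before the start the values are 11.03 and 33.7 without and 40.0 and 45.7 with IAA. Hdac2 was at 83.1 and 79.4 without and 92.0 and 89.8 with IAA. Hdac1 was at 84.8 and 83.1 without and 64.0 and 71.6 with IAA. Over both media Rbbp4 differed by 2.23 points in the same direction (two-sided exact permutation p = 0.0556, n = 2 per group and medium). This is the smallest p that 36 arrangements allow, and it is not adjusted over the 10 genes. For Chd4, uncalled in serum, the value over both media was 7.48 points (two-sided exact permutation p = 0.333, n = 2 per group and medium).

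The CTCF consensus was in 9 of the 180 sites of the NuRD genes (5%), against 5.57% of all sites. In serum-free medium, 4 of 98 member sites were lost with IAA (6.6% of all sites) and 7 of 54 gained (9.38%). Of 5 member sites with the consensus that could be lost, 1 was lost, and of 93 without it 3 were lost, while over the series 34.8% of sites with the consensus and 4.75% of those without it were lost. The lost one is the Gatad2a intron site shown above, at chr8:69918973-69919473, with 63.4 and 51.0 without IAA, no call with IAA and no call in either CTCF-overexpressing line. The other 3 lost sites, without the consensus, lie in an Hdac1 intron 775 bp from its start, in a coding exon of Mta3 and at the start of Gm45354 within Gatad2b. The 7 gained sites belong to Mta3 (3), Gatad2b (2), Gatad2a (1) and Hdac1 (1). In serum the Gatad2a site was called by 1 library without IAA (46.1) and by neither with IAA.

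In serum 4 of 50 member sites were lost (8.58%) and 1 of 106 gained (3.54%). Of 3 with the consensus 1 was lost, and of 47 without it 3 (over the series 40.8% and 5.56%). The lost one is the Mta3 intron site shown above, at chr17:83732828-83733328, with 25.3 and 35.8 without IAA and no call with IAA. In serum-free medium it was called by 1 of 2 libraries without IAA (35.8) and neither with IAA, and in the Chd8 set it was strong in all 6 libraries (70.8 to 96.5). The other 3 lost sites belong to Mta1, among them the intron site gained with both Chd8 hairpins, and the gained site lies 5312 bp upstream of Chd4. No member site was lost in both media by the full rule. A consensus site at the start of Hdac2 was called in all libraries of both media with and without IAA. Its match has 1 mismatch and lies 218 bp from the summit. The Hdac2 promoter peak was 1150 to 1534 bp long in these libraries, so the call is not specific to the match.

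The overexpressing lines were set beside the control line with IAA, which they share. In the wild-type CTCF line 3 of 10 promoters were lower without overlap (29.1%) and 0 higher (11.5%), and by covered length 2 were lower (Chd4 and Gatad2b; 26.6%) and 1 higher (Mta3; 6.33%). Chd4 was the largest of these 3, at 59.5 and 50.9 in the control line and 10.8 and 20.5 in the wild-type line (−39.6 ± 6.45 points, pooled SD, n = 2 and 2; two-sided exact permutation p = 0.333). Its 5′ UTR site was called by both libraries of the control line with IAA and by neither of the wild-type line. In the mutated CTCF line 5 of 10 were lower (23.5%) and 2 higher (13.3%). By covered length 2 were lower there (Mta1 and Gatad2b; 16.2%) and 3 higher (Mbd3, Mta3 and Hdac1; 14.1%), with Hdac1 lower by percentile and higher by covered length. Chd4 was there lower by 18.3 points and Mta1 by 23.7, while Gatad2b was lower by 0.286 points. Sites lost were 5 of 101 in the wild-type line (4.82% of all sites) and 4 of 101 in the mutated line (3.63%), and sites gained 3 of 41 (8.1%) and 6 of 41 (7.67%). Those lost in the wild-type line belong to Hdac1 (2), Chd4 (1), Gatad2b (1) and Mta3 (1), and those lost in the mutated line to Gatad2a, Gatad2b, Hdac1 and Mta3 (1 each). The gained ones belong to Gatad2a, Hdac1 and Mta3 (1 each) in the wild-type line and to Gatad2b (2), Mta3 (2), Chd4 (1) and Mbd3 (1) in the mutated line. The Mta3 exon site at chr17:83775357-83775857 holds the CTCF consensus with 1 mismatch. It was called by both control libraries with IAA (44.6 and 1.41) and by no library of the control line without IAA or of the overexpressing lines. Both shRNA2 libraries of the Chd8 set, without IAA, called it as well. Within the CTCF lines the site thus counts as gained with IAA and as lost in both overexpressing lines, from the same 2 control libraries. In all, 3 of the 5 sites lost in the wild-type line (at Gatad2b, Hdac1 and Mta3) and 3 of the 4 lost in the mutated line (at Gatad2a, Gatad2b and Mta3) are sites gained with IAA in those control libraries.

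Among 5269 protein-coding genes with a promoter peak in all 24 libraries, those whose percentile was most like that of Chd4 over the libraries were Clint1 (Pearson r = 0.702), Pnmal2 (0.696) and Gmnn (0.667). The 24 points share library and set, and the values are a description.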

How the data were processed

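Peak lists of 24 ATAC-seq libraries in 12 groups of 2 were used. Per the submitters' processing notes, Trim Galore, Bowtie2, MACS2 and deepTools were used with the build mm10. Versions and settings are not given in the sources used here. The authors' fold per peak is a linear ratio over the local background. Each deposited peak also has a −log10 p and a −log10 q, valid within its own list, with a smallest −log10 q of 1.301 to 1.311. One list was deposited per library. Inside both serum lists with IAA the peak names carry other replicate numbers than the labels, and the labels were followed.

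The 10 genes, the 17 related genes and the marker lists were chosen with earlier results of these data known. All 10 genes are named. Sites lost or gained with both hairpins, with IAA or in the overexpressing lines are named at least by gene, and those of single hairpins are given mostly as counts. Sequences were printed for the Chd4 promoter and the 3 sites lost with both Chd4 hairpins that had the highest mean percentile over the libraries that called them, while the Mbd3 and Hdac2 promoters and the 2 CTCF sites were added after their values were seen. Gene positions came from GENCODE vM21 (77161 starts). Lists were cut within each of 4 sets to the shortest list by −log10 p. Windows of 501 bp (250 bp either side of a summit) were placed from the best percentile downwards without overlap. Those called by at least 2 libraries were kept, 233705 of 405819. A library called a window when a peak of its cut list overlapped it. A site was lost when all reference libraries and no treated library called it, and gained where the reverse held. No test per site was run. Single values were compared by two-sided exact permutation of the library labels. Replicates of a group shared at most 0.224% of their intervals. Without reads, counting intervals were not computed. Alternatives were the deposited list length, 50% of the shortest list, ranking by fold, a start distance of 500 bp, a −log10 q of at least 10, windows covered by at least 50%, the gene body alone, a replicate block and leaving out each library. The site rule was tested on simulated data. Python 3.11.15, numpy 2.4.6, pandas 2.3.3 and matplotlib 3.10.9 were used.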

Additional observations from a re-analysis of the deposited data

Results flagged for a closer look

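The effect of IAA on the Gatad2a promoter had opposite directions in the media. It was 0.227 points in serum-free medium (99.5 and 99.6 without IAA, 99.7 and 99.8 with IAA) and −3.48 points in serum (97.4 and 95.8 without IAA, 94.1 and 92.0 with IAA). The difference between the effects was 3.70 percentile points, with p = 0.0556 in a two-sided exact permutation test (n = 2 per group and medium), the smallest the design allows and not adjusted over the 10 genes. The serum-free libraries are the overexpression control line and the serum libraries are CTCF-AID cells of another set, with lists cut to another length, so medium, line and set cannot be told apart. The serum-free values lie near the top of the percentile scale.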

How the results depend on the processing

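Counts of sites rest on few libraries. The number of NuRD gene promoters called in all 24 libraries was 2 at the deposited list length and 0 at 50% of the shortest list, at a −log10 q of at least 10 and within 500 bp of a start. The matching shares of all protein-coding genes are not given here, so these counts describe the settings and not a trait of the NuRD genes. In what follows the percentages are the share of member sites and the share of all sites. At the deposited length, lost sites were 2 of 69 (2.9%, 3.92%) in the Chd8 set, 8 of 109 (7.34%, 7.32%) with IAA serum-free, 3 of 104 (2.88%, 2.84%) in the wild-type line and 2 of 104 (1.92%, 2.35%) in the mutated line, and gained sites 0 of 101 (0%, 5.78%) with IAA in serum and 5 of 38 (13.2%, 12.3%) in the wild-type line. At 50% of the shortest list, lost sites were 1 of 67 (1.49%, 6.45%) with IAA serum-free, 1 of 30 (3.33%, 7.73%) with IAA in serum, 2 of 66 (3.03%, 4.46%) in the wild-type line and 1 of 66 (1.52%, 3.31%) in the mutated line, and gained sites 0 of 105 (0%, 0.47%) in the Chd8 set, 4 of 100 (4%, 2.84%) with IAA serum-free, 0 of 141 (0%, 1.45%) with IAA in serum, 1 of 96 (1.04%, 1.93%) in the wild-type line and 0 of 96 (0%, 1.89%) in the mutated line. At a −log10 q of at least 10, lost sites were 3 of 6 (50%, 45.2%) in the Chd4 set, 3 of 27 (11.1%, 2.86%) in the Chd8 set, 0 of 21 (0%, 4.1%) with IAA in serum, 1 of 80 (1.25%, 2.2%) in the wild-type line and 1 of 80 (1.25%, 1.53%) in the mutated line, and gained sites 0 of 136 (0%, 0.088%) in the Chd8 set, 2 of 86 (2.33%, 2.23%) with IAA serum-free, 0 of 151 (0%, 2.41%) with IAA in serum and 1 of 88 (1.14%, 4.43%) in the mutated line. With at least 50% of the window covered, lost sites were 6 of 10 (60%, 54.1%) in the Chd4 set, 0 of 14 (0%, 2.02%) in the Chd8 set, 2 of 35 (5.71%, 7.24%) with IAA in serum and 2 of 78 (2.56%, 3.7%) in the mutated line, and gained sites 0 of 135 (0%, 0.0912%) in the Chd8 set, 3 of 81 (3.7%, 4.67%) with IAA serum-free, 2 of 124 (1.61%, 3.19%) with IAA in serum, 1 of 70 (1.43%, 2.51%) in the wild-type line and 3 of 70 (4.29%, 3.93%) in the mutated line. In the gene body alone, lost sites were 5 of 20 (25%, 14.2%) in the Chd4 set and 0 of 35 (0%, 3.46%) in the Chd8 set, and gained sites 0 of 81 (0%, 3.54%) with IAA in serum. The cause of the changes was not tested.

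Leaving out one library at a time, lost sites ranged from 9 to 23 in the Chd4 set (23.1 to 37.7%, all sites 17.5 to 22.6%), 2 to 4 in the Chd8 set (3.03 to 6.06%, all sites 4.65 to 10.3%), 5 to 11 with IAA serum-free (5.1 to 11.2%, all sites 10.2 to 11.1%), 6 to 14 with IAA in serum (12 to 23%, all sites 12.9 to 15.9%), 7 to 18 in the wild-type line (6.93 to 13.7%, all sites 8.33 to 12.4%) and 7 to 11 in the mutated line (6.42 to 8.4%, all sites 7.24 to 9.22%). Gained sites ranged from 0 to 1 in the Chd4 set (0 to 0.943%, all sites 2.42 to 3.01%), 2 to 6 in the Chd8 set (2.38 to 7.25%, all sites 2.04 to 4.77%), 9 to 24 with IAA serum-free (13.2 to 44.4%, all sites 13.2 to 24.9%), 1 to 4 with IAA in serum (0.855 to 3.77%, all sites 5.63 to 8.85%), 4 to 9 in the wild-type line (8.16 to 22%, all sites 11.1 to 19.4%) and 9 to 17 in the mutated line (18.4 to 41.5%, all sites 12.3 to 19.2%). Where a single library gave the highest count, it was reached without control line IAA replicate 2 (gained serum-free, and lost in both overexpressing lines), Chd4 set shluci replicate 1 (lost), mutated line replicate 1 and wild-type line replicate 2 (gained there), serum no IAA replicate 1 (lost), and Chd8 set shluci replicate 2 (gained). By single hairpin, left-out libraries gave 14 to 27 (35.9 to 44.3%, all sites 34.2 to 38.9%) lost and 1 to 7 (0.84 to 6.6%, all sites 7.06 to 14.5%) gained for Chd4 shRNA1, 21 to 32 (51.9 to 61.5%, all sites 37.6 to 47.8%) lost and 2 to 7 (1.68 to 6.6%, all sites 7.05 to 15.6%) gained for Chd4 shRNA2, 6 to 13 (9.09 to 19.7%, all sites 17.6 to 22.5%) lost and 6 to 14 (7.14 to 20.3%, all sites 6.79 to 16.8%) gained for Chd8 shRNA1 and 9 to 12 (12.5 to 13.6%, all sites 14.4 to 17.7%) lost and 11 to 17 (13.1 to 24.6%, all sites 10.7 to 21.7%) gained for Chd8 shRNA2. At a −log10 q of at least 10, Chd8 shRNA1 lost 6 of 27 (22.2%, 11.5%) and gained 0 of 136 (0%, 0.24%). Chd8 shRNA2 there lost 4 of 27 (14.8%, 4.98%) and gained 2 of 136 (1.47%, 1.42%). Chd4 shRNA1 and shRNA2 there each lost 4 of 6 (66.7%, all sites 56.6% and 60.1%). With at least 50% of the window covered, these Chd4 hairpins each lost 7 of 10 (70%, all sites 65.8% and 70.1%). At 50% of the shortest list, Chd8 shRNA2 gained 1 of 105 (0.952%, 3.09%). The Chd4 promoter difference ranged from 2.38 to 9.89 (Chd4 hairpins), −53.3 to −37.8 (Chd8 hairpins) and 4.78 to 10.2 (IAA). Reversed were Mta3 in the Chd4 set within 500 bp of a start (2.12 for both hairpins, 4.24 for shRNA2) and Hdac2 in the mutated line ranked by fold (−1.61). Replicate numbers share only a label, since deviations of same-numbered libraries correlated at −0.135 to 0.130. With a replicate block the Chd4 promoter difference was 7.41 (exact permutation p = 0.778) in the Chd4 set, −44.9 (0.222) in the Chd8 set and 7.48 (0.5) with IAA.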
